A study of Mus musculus with 24 samples.

Results

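Matrix metalloproteinases, ADAMs, ADAMTS enzymes, ADAMTS-like proteins and TIMPs were described across mammary basal cells. The genes were taken by symbol: 23 Mmp, 33 Adam, 19 Adamts, 5 Adamtsl and 4 Timp genes, 84 of the 27080 genes counted. MMPs are zinc enzymes that cut collagens and other matrix proteins, ADAMs are membrane-anchored relatives of which the catalytic ones shed growth factors and receptors from the cell surface, and ADAMTS enzymes are secreted and cut proteoglycans or trim procollagens. ADAMTS-like proteins share the ancillary domains of ADAMTS enzymes but lack the protease domain, and TIMPs are secreted inhibitors of these enzymes. In the mammary gland the balance of proteases and inhibitors is known for remodelling the matrix round growing ducts and during involution. H3K4me3 marks promoters that are active or poised, and H3K27me3 is laid down by Polycomb repressive complex 2 over genes that are kept silent.

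Cells of the mammary gland of untreated C57BL/6 females had been sorted into basal subpopulations by Tspan8, which belongs to the tetraspanins, and by Lgr5, which binds R-spondins. The subpopulations were Lgr5+Tspan8hi, Lgr5+Tspan8-, Lgr5-Tspan8hi and Lgr5-Tspan8-, each with 2 libraries for H3K4me3 and 2 for H3K27me3. The labels give no age and do not say how Lgr5 was detected, if animals were pooled, or if each replicate is a different animal. The p-values therefore reflect the spread of these libraries, and that spread could be technical. The 8 input samples were not analysed here, so no level is relative to input.

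Total counts ran from 1472251 to 4740371 per H3K4me3 library and from 2639862 to 6972189 per H3K27me3 library. Tspan8 itself had H3K4me3 of 79.9 ± 8.79 CPM (CPM, the count relative to the scaled library total; SD, n = 4) with Tspan8hi against 24.9 ± 4.13 CPM with Tspan8- (log2 fold change 1.68 ± 0.18 SE, edgeR adjusted p = 3.26e-11). At Lgr5 the H3K4me3 difference did not pass (edgeR adjusted p = 0.961), and H3K27me3 differed by -0.72 on the log2 scale, Lgr5+ being lower, without passing (edgeR adjusted p = 0.0537), although any difference of Lgr5 H3K27me3 among the 4 subpopulations passed (edgeR adjusted p = 0.0146). Of 8 basal and myoepithelial markers 6 were above the 75th percentile of all genes for H3K4me3, Trp63 had 1.76 CPM, and 5 of 6 immune markers were under 5 CPM. Of 8 luminal markers 3 were also above the 75th percentile, namely Krt8 (107 CPM), Pgr (91.6 CPM) and Krt18 (67.1 CPM). Summed H3K4me3 of 8 fibroblast markers, 1 of which was under 5 CPM and none at 0, was 248 to 299 CPM in Tspan8hi and 284 to 355 CPM in Tspan8- libraries. Libraries also differed in effective depth, which is the share of its reads that a library of independent reads would need to miss the same number of genes. It was 17.2% to 47.6% in Tspan8hi and 55.5% to 99.3% in Tspan8- libraries for H3K4me3, and 31.1% to 64.6% and 72.0% to 79.0% for H3K27me3. Every Tspan8hi library was therefore below every Tspan8- library of its mark, and Lgr5-Tspan8hi replicate 1 was the lowest for both marks.

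The region counted for each gene is not given in the sources used here. Genes whose starts lay less than 1 kb apart had almost equal H3K4me3 counts (median ratio 1.01 over 1671 pairs) and unequal H3K27me3 counts (median ratio 4.19 over 1152 pairs). H3K4me3 is therefore given as CPM round the gene start and compared between genes, whereas H3K27me3 is compared between genes only per kb of gene. Whether members have H3K4me3 at other starts was not tested.

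The upstream bases of 53 members were found in the RefSeq promoter table of GRCm38.p6, and those of the members on which the account of promoters turns are shown 5′ to 3′ over the 250 bases before the start that the table gives. Adamts1 and Mmp14 come first, as the members with the most H3K4me3, then Adamtsl5, whose H3K27me3 varied between subpopulations. Capitals mark CG in these. The window of Adamtsl5 lies inside the gene, whose outer start on the minus strand is at 80349030. Round which of its starts H3K4me3 was counted is not known. The last pair are the stromelysin genes Mmp3 and Mmp10, with almost no H3K4me3; capitals there mark the AP-1 motif TGAGTCA.

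Adamts1 (chr16:85803114-85803363, minus strand): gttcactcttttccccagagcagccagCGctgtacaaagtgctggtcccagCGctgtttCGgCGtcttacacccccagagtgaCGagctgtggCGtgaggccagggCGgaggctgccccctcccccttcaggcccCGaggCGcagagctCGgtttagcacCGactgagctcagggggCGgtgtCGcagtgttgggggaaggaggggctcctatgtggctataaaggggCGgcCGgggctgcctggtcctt
Mmp14 (chr14:54431348-54431597, plus strand): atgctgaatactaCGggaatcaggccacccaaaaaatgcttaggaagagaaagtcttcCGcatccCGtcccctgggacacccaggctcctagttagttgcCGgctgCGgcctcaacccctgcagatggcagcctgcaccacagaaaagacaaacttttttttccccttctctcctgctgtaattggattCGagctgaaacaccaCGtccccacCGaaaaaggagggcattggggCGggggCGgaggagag
Adamtsl5 (chr10:80348449-80348698, minus strand): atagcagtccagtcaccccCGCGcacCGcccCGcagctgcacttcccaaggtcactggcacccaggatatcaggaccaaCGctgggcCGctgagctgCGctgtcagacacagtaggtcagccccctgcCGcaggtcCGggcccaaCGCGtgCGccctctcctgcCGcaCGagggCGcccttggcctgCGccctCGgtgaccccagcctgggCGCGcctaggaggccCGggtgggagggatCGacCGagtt
Mmp3 (chr9:7445572-7445821, plus strand): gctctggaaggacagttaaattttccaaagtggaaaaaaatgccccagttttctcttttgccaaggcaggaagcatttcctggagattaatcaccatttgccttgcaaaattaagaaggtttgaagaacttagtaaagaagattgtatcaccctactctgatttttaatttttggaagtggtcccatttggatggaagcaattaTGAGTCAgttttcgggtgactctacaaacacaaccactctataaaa
Mmp10 (chr9:7502092-7502341, plus strand): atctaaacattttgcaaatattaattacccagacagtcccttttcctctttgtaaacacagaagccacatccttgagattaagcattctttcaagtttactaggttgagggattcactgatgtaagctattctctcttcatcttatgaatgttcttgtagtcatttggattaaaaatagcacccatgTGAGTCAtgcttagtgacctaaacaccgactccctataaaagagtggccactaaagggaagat

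Promoters were called CpG-rich at an observed-over-expected CpG ratio of at least 0.6. This held for 20 of the 53 members (37.7%) and for 44.8% of 18458 genes in the table. H3K4me3 had a median of 49.9 CPM at the CpG-rich and 1.92 CPM at the 33 CpG-poor members, beside 63.9 and 2.87 CPM over all genes. Across the 53 members Spearman's rho between the CpG ratio and H3K4me3 was 0.745, and over all genes with a promoter entry it was 0.72. Adamts1 and Mmp14, at ratios of 0.56 and 0.53, were just under the line and yet had 160 and 138 CPM. Adamts9, a proteoglycan-cleaving enzyme, was the reverse case, with a CpG-rich promoter (0.70) and 3.64 CPM. The start in the promoter table need not be the one round which H3K4me3 was counted, and this was not checked.

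The AP-1 motif, searched as TGAGTCA and its reverse TGACTCA, was found in 7 of the 53 windows (13.2%), against 4.13% of all windows. The 7 were Mmp1a, Mmp1b, Mmp3, Mmp7, Mmp10, Mmp13 and Adam29, with H3K4me3 of 0.94 to 5.44 CPM. All but Adam29 are neighbours in 1 run on chromosome 9, so the share of members rests mostly on that run. TATAAA, searched on the gene's strand in the last 50 bases, was in 8 windows (15.1%, against 3.36% of all). Those were the same 6 Mmp genes, Adamts1 and Adamtsl2. A match says only that these letters are in the window.

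Adamts genes had the most H3K4me3 of the 3 larger families, with a median of 62.5 CPM against 4.90 CPM at Mmp and 2.20 CPM at Adam genes, beside 27.8 CPM over all genes with a symbol. Per kb of gene H3K27me3 ran the other way. Its medians were 0.50 CPM per kb at Adamts, 0.73 at Mmp and 1.02 at Adam genes, beside 0.60 over all. This order depended on the division by gene length, without which the Adamts median was the highest of the 3 families. A gene was called high for a mark when its mean over the 8 libraries was at or above the 75th percentile of all genes with a symbol, 64.7 CPM for H3K4me3 and 1.52 CPM per kb for H3K27me3. H3K4me3 was high at 20 of the 84 members (23.8%), made up of 4 of 23 Mmp, 5 of 33 Adam, 9 of 19 Adamts, 0 of 5 Adamtsl and 2 of 4 Timp genes. H3K27me3 was high at 14 (16.7%), namely 4 Mmp, 7 Adam, 1 Adamts, 0 Adamtsl and 2 Timp genes. Without division by gene length 36 members (42.9%) were at or above the 75th percentile, so whether the members lay under or over the share of all genes depended on that division. No member was high for both marks, which was also rare over all genes (189 of 25189). Across the 84 members Spearman's rho between the marks was -0.51, and over all genes -0.50.

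**Figure D1:**
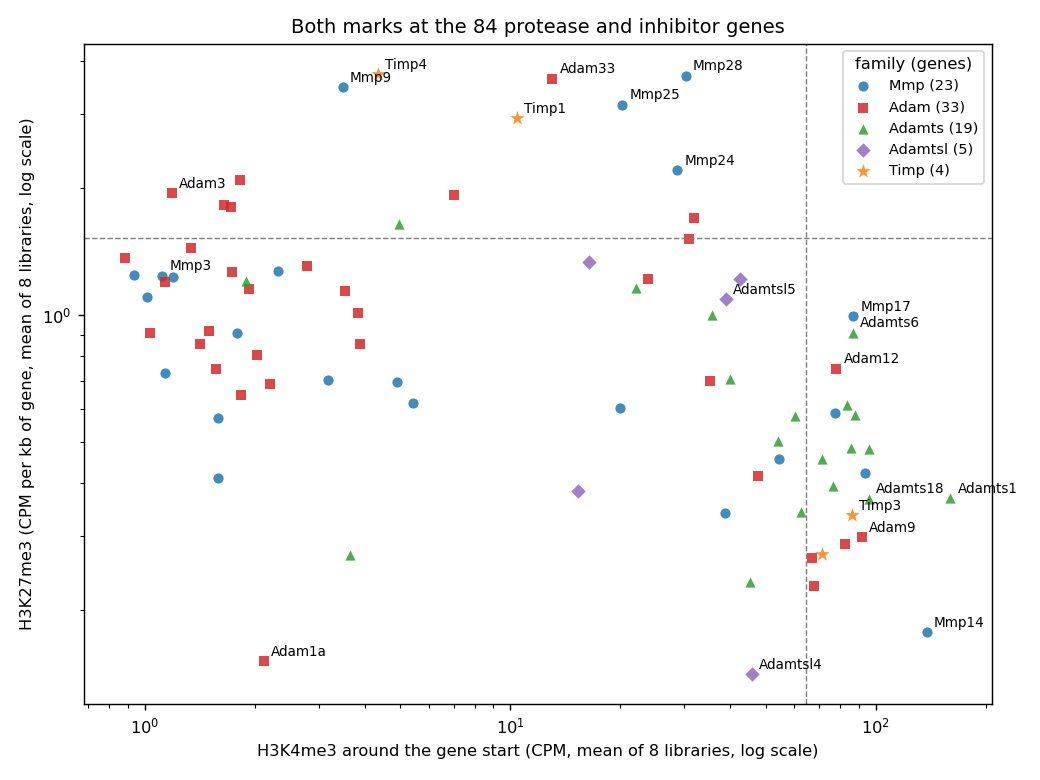
H3K4me3 (horizontal, CPM) against H3K27me3 (vertical, CPM per kb of gene) on log axes, each point a member and its mean over 8 libraries, coloured and shaped by family; dashed lines mark 64.7 CPM and 1.52 CPM per kb, the 75th percentiles of all genes. No member lies above both lines; Adamts1 and Mmp14 are farthest right, and Timp4, Mmp28, Adam33 and Mmp9 are highest.

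Among the 6 membrane-type MMPs, which act at the cell surface, the median H3K4me3 was 57.8 CPM. Mmp14, the main activator of pro-MMP2, stood at 120 to 155 CPM in the 8 libraries (median 141), with H3K27me3 of 0.035 to 0.28 CPM per kb. Mmp15 (93.6 ± 14.2 CPM; SD over the 8 libraries, here and below) and Mmp17 (86.9 ± 8.36 CPM) were high as well. Mmp24 and Mmp25 had less H3K4me3, 28.6 and 20.2 CPM, and their H3K27me3 was high at 2.21 ± 0.37 and 3.15 ± 0.64 CPM per kb. Mmp25 shares its start with Bicdl2, so the H3K4me3 of that pair cannot be told apart. Mmp25 also overlaps Bicdl2, and Mmp24 overlaps BC029722, so H3K27me3 reads there cannot be given to 1 gene. Mmp16, the remaining member, had 20.0 CPM and 0.60 CPM per kb, so that 3 of the 6 were high for H3K4me3, 2 for H3K27me3 and 1 for neither.

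The 17 secreted MMPs had a median H3K4me3 of 2.31 CPM, and 8 of them lay under the 25th percentile of all genes. Mmp23, at 77.3 CPM, was the 1 high member, and it overlaps Mib2. Mmp2, a gelatinase, had 25 to 69.8 CPM (median 59.0), with its lowest library in Lgr5+Tspan8hi. Mmp11, stromelysin-3, had 38.7 ± 6.59 CPM and shares its start with Chchd10. Mmp9, the other gelatinase, had 0.45 to 9.19 CPM (median 3.47) of H3K4me3 and 2.74 to 4.67 CPM per kb of H3K27me3 (median 3.33). Mmp28, epilysin, had 30.2 ± 5.32 CPM of H3K4me3. Its H3K27me3, at 3.70 ± 0.45 CPM per kb, differed from that of Mmp9 (3.47 ± 0.58) by less than the spread between libraries. Mmp28 overlaps 1700020L24Rik, so the H3K27me3 of that pair cannot be told apart. The gelatinases therefore differed in both marks, with Mmp2 above Mmp9 for H3K4me3 and below it for H3K27me3 in each library.

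The Mmp genes of chromosome 9 lie side by side, from 7272514 to 7699585, in the order Mmp13, Mmp12, Mmp1b, Mmp3, Mmp1a, Mmp10, Mmp8, Mmp27, Mmp20 and Mmp7. They include the collagenases, stromelysins and matrilysin. H3K4me3 was 0.94 to 5.44 CPM over these 10 genes and H3K27me3 0.57 to 1.27 CPM per kb, so that none was high for either mark. Mmp3, stromelysin-1, was at 0 in 4 of the 8 H3K4me3 libraries and at most 4.04 CPM in the rest, which is near the counting floor. The 10 neighbours were thus low in H3K4me3, and their H3K27me3 was below that of Mmp9 and Mmp28.

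Of the 9 somatic catalytic ADAMs 5 were high for H3K4me3. Adam10, which releases Notch and E-cadherin fragments, had a median of 84.7 CPM, with 98.1 CPM at most, and Adam17, which sheds TNF and the ligands of the EGF receptor, 68.1 ± 11.4 CPM on average. Adam17 overlaps Iah1. Adam12, a protease of mesenchymal and muscle cells, had 78.2 ± 11 CPM. The values of Adam9 (91.7 ± 5.59 CPM) and Adam15 (67 ± 6.45 CPM) are shared with the starts of Tm2d2 and Dcst2. Adam33 had 13.0 ± 3.27 CPM and, at 3.64 ± 0.91 CPM per kb, the most H3K27me3 of all Adam genes. Adam8 and Adam28, best known from blood cells, had 3.88 and 3.53 CPM of H3K4me3.

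Adam11, Adam22 and Adam23, which lack catalytic activity and serve as synaptic receptors, had 30.9 to 35.2 CPM of H3K4me3 and 0.70 to 1.70 CPM per kb of H3K27me3. All 3 were among the 13 members (15.5%) above the median of all genes for both marks, as 10.7% of all genes were. The others were Adam12, Adamts5, Adamts6, Adamts12, Adamts14, Adamtsl3, Adamtsl5, Mmp17, Mmp24 and Mmp28. The 21 reproductive-tract and other ADAMs, most of them sperm or epididymal proteins, had a median of 1.73 CPM, and 15 lay under the 25th percentile for H3K4me3. Adam5 had the most, 21.2 to 28.8 CPM. For H3K27me3 5 of the 21 were high, with Adam2, a sperm fertilin subunit, at 2.09 ± 0.17 CPM per kb. At the other end Adam1a had 0.15 CPM per kb, the lowest of the Adam family.

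A run on chromosome 8, from 24602246 to 25017040, joins ADAMs of different roles. It holds Adam18, Adam3, Adam5, Adam32 and Adam9 in that order. Adam9 had 91.7 CPM of H3K4me3 and 0.30 CPM per kb of H3K27me3, while the 4 sperm-type genes beside it had 1.19 to 23.9 CPM and 1.22 to 1.94 CPM per kb. Adam32 ends at 24948918, and Adam9 begins at 24949611 and is read from its far end at 25017040 (minus strand). With levels given per gene, the place where the marks change cannot be told. The H3K4me3 of Adam9 is shared with the start of Tm2d2.

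**Figure D2:**
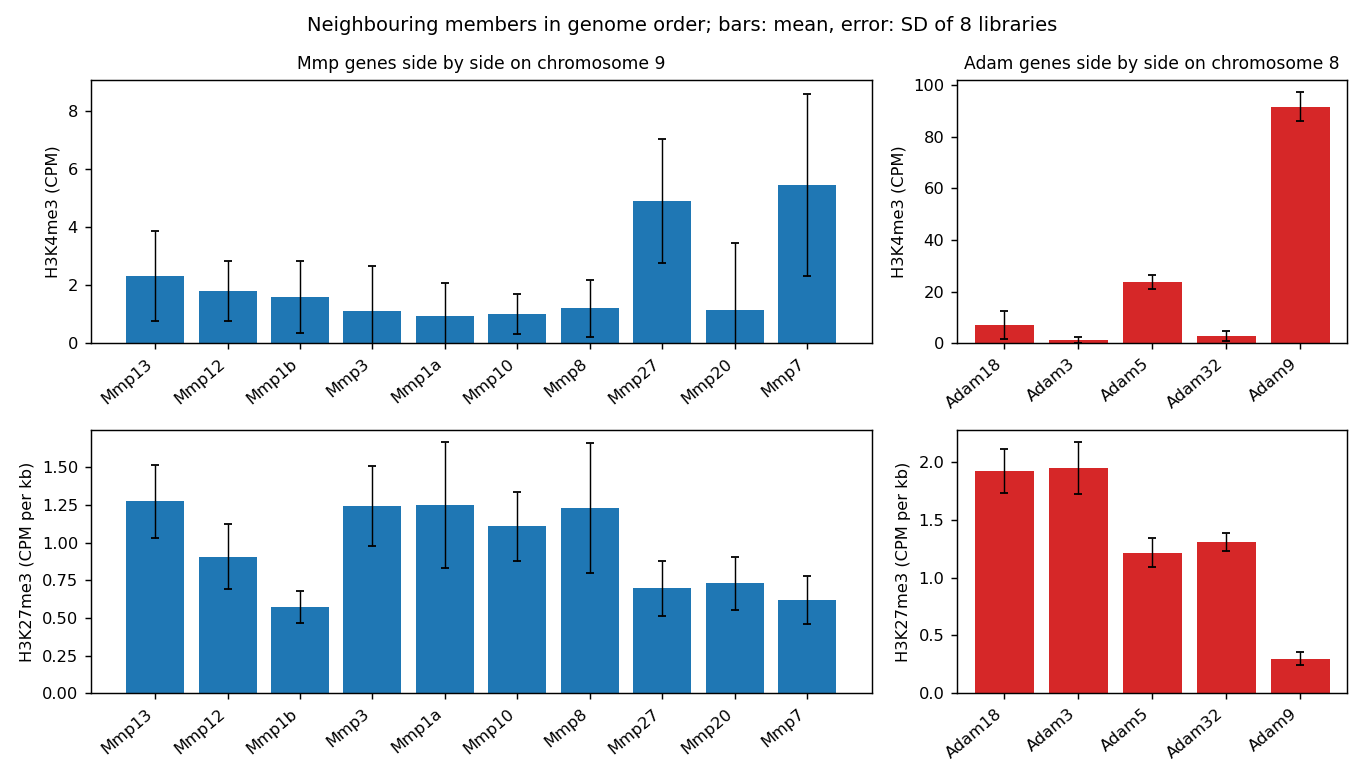
Mean H3K4me3 (upper, CPM) and H3K27me3 (lower, CPM per kb) at the 10 Mmp genes of chromosome 9 and the 5 Adam genes of chromosome 8 in genome order; error bars are the SD of the 8 libraries, which span the 4 subpopulations. Scales differ between panels: the Mmp genes stay under 6 CPM of H3K4me3 on average. Adam9, whose value is shared with the start of Tm2d2, stands at 91.7 CPM beside neighbours of 1.19 to 23.9 CPM.

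The 7 proteoglycan-cleaving ADAMTS genes had a median of 71.3 CPM of H3K4me3, and 4 were high. Adamts1, a versican- and aggrecan-cleaving enzyme, had the most of all members, 123 to 176 CPM (median 167). Its neighbour on chromosome 16, the aggrecanase gene Adamts5, had 83.7 ± 8.86 CPM. Adamts15 and Adamts8, neighbours on chromosome 9, had 71.3 and 88.1 CPM. H3K27me3 was 0.27 to 0.61 CPM per kb over the 7 genes. Of the 3 procollagen N-propeptidases Adamts2 (96.3 ± 13.8 CPM) and Adamts3 (85.6 CPM) were high and Adamts14 stood at 35.8 CPM. The ADAMTS genes that cleave proteoglycans or procollagen were thus high in H3K4me3 at 4 of 7 and 2 of 3, and in no case high in H3K27me3.

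Among the 9 other ADAMTS genes Adamts18 (95.9 ± 15.8 CPM), Adamts6 (86.8 ± 18.5 CPM) and Adamts7 (76.3 CPM) were high for H3K4me3. Adamts16 was the 1 ADAMTS gene high for H3K27me3, at 1.64 ± 0.11 CPM per kb with 4.97 CPM of H3K4me3. Adamts13, the plasma protease of von Willebrand factor, had 1.90 CPM of H3K4me3, the least of its family, and Adamts10 had the least H3K27me3, 0.23 CPM per kb. The 5 Adamtsl genes lay between 15.3 CPM (Adamtsl1) and 45.8 CPM (Adamtsl4), and none was high for either mark. Adamtsl4, with 0.14 CPM per kb of H3K27me3, was the lowest of all 84 members for that mark, while Adamtsl2 (1.34) and Adamtsl3 (1.22 CPM per kb) were the highest of their family.

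The inhibitors were divided. Timp3, which is bound to the matrix, had 55.9 to 105 CPM (median 86.9) and Timp2, a partner of MMP14 in the activation of pro-MMP2, 57.7 to 87.9 CPM (median 68.8), with 0.34 and 0.27 CPM per kb of H3K27me3. Timp1 had 7.45 to 13.3 CPM (median 10.8) of H3K4me3 and 1.81 to 5.09 CPM per kb of H3K27me3 (median 2.61). Timp4 had 2.17 to 9.32 CPM (median 3.89) of H3K4me3 and 2.73 to 4.84 CPM per kb of H3K27me3 (median 3.68). The ranges of Timp2 and Timp3 did not meet those of Timp1 and Timp4 for either mark. Timp1, Timp3 and Timp4 overlap the synapsin genes Syn1, Syn3 and Syn2, and Timp2 overlaps Cep295nl, so H3K27me3 reads there cannot be given to 1 gene.

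The families were then compared over the 4 subpopulations by their medians. Median H3K4me3 of the Adamts genes was 59.0 CPM in Lgr5+Tspan8hi, 64.1 in Lgr5+Tspan8-, 67.5 in Lgr5-Tspan8hi and 66.9 in Lgr5-Tspan8- cells. For the Mmp genes it was 3.65, 5.24, 4.41 and 5.13 CPM, and for the Adam genes 2.69, 2.98, 2.73 and 3.09 CPM, in the same order. Median H3K27me3 of the Mmp genes was 0.95, 0.75, 0.65 and 0.69 CPM per kb, of the Adam genes 0.85, 1.06, 1.1 and 1.02, and of the Adamts genes 0.62, 0.44, 0.51 and 0.51, beside 0.61, 0.54, 0.55 and 0.56 over all genes. Adamts genes were above Mmp genes and these above Adam genes in each subpopulation for H3K4me3, whereas the Adamtsl and Timp medians changed places in Lgr5-Tspan8hi (37.8 and 35.6 CPM). For H3K27me3 the Mmp median was above the Adam median in Lgr5+Tspan8hi and below it in the other subpopulations. At single genes Lgr5+Tspan8hi had the lowest H3K4me3 at 34 of the 84 members and the highest at 12. It had the highest H3K27me3 at 30 and the lowest at 18. Its median over all genes was likewise the lowest for H3K4me3, at 26.6 CPM against 26.8 to 28.1 CPM in the others. For H3K27me3 its median over all genes was the highest. The H3K4me3 median of the 84 members was 13.8 CPM in Lgr5+Tspan8hi and 12.4 CPM in Lgr5+Tspan8-, so it did not follow the counts of single genes. Shares of single genes over all genes were not counted. Whether the tilt is particular to the members was therefore not tested. For H3K4me3 29 of the members had too few counts to be tested. These means of 2 libraries were not tested.

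The Tspan8 comparison set the 4 Tspan8hi against the 4 Tspan8- libraries of a mark. H3K4me3 passed an adjusted p of 0.05 at 0 of the 55 members with enough counts for the test, while 0.0473% of all 19009 genes passed (edgeR's quasi-likelihood test, Benjamini-Hochberg adjusted; lowest adjusted p of a member 0.608). DESeq2 and limma-voom also called 0, and 7 members (12.7%) had an unadjusted edgeR p under 0.05, against 5.9% of all genes. H3K27me3 passed at 2 of 83 members, 1 higher and 1 lower, while 0.335% of 22099 genes passed (0.095% higher and 0.24% lower). An unadjusted p under 0.05 was found at 14 members (16.9%) and at 12.9% of all genes.

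Adamts6, an ADAMTS enzyme of heart and connective tissue development (chromosome 13, 104286518 to 104496695, plus strand, GRCm38), had less H3K27me3 in Tspan8hi cells. Its H3K27me3 was 152 and 146 CPM in Lgr5+Tspan8hi, 262 and 171 CPM in Lgr5+Tspan8-, 122 and 147 CPM in Lgr5-Tspan8hi and 283 and 247 CPM in Lgr5-Tspan8- libraries. All 4 Tspan8hi libraries lay below all 4 Tspan8- libraries, with replicate 2 of Lgr5+Tspan8- the nearest to them. The means were 142 ± 13.6 and 241 ± 48.6 CPM (SD, n = 4 each), a log2 difference of -0.75 ± 0.12 SE (adjusted p = 0.00223 by edgeR), which passed under each of 17 alternatives (adjusted p from 2.31e-06 to 0.0492). Without Lgr5-Tspan8hi replicate 1 it was -0.70 (edgeR adjusted p = 0.0121). The gene overlaps Gm8680, whose reads cannot be told apart from its own.

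H3K4me3 at Adamts6 was 95.8 and 96.9 CPM in Lgr5+Tspan8hi, 97.4 and 94.9 CPM in Lgr5+Tspan8-, 107 and 84.2 CPM in Lgr5-Tspan8hi and 65.2 and 52.8 CPM in Lgr5-Tspan8- libraries. The double-negative libraries were below the other 6. This pattern did not pass as a difference among the subpopulations (edgeR adjusted p = 0.293), although limma-voom (adjusted p = 0.0137) and the fit without Lgr5-Tspan8hi replicate 2 (adjusted p = 0.0183) took it past the threshold. In the double-negative cells the H3K27me3 of Adamts6 was also the highest of the 4 means, at 265 CPM.

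Adam12 (chromosome 7, 133883199 to 134225097, minus strand) had more H3K27me3 in Tspan8hi cells. It had 356 and 300 CPM in Lgr5+Tspan8hi, 181 and 197 CPM in Lgr5+Tspan8-, 325 and 265 CPM in Lgr5-Tspan8hi and 243 and 178 CPM in Lgr5-Tspan8- libraries. The 4 Tspan8hi libraries lay above the other 4. The means were 311 ± 38.5 and 200 ± 30.1 CPM (SD, n = 4 each), a log2 difference of 0.64 ± 0.11 SE (adjusted p = 0.0040 by edgeR). The call ended without Lgr5+Tspan8hi replicate 1 (adjusted p = 0.0507) or Lgr5+Tspan8- replicate 1 (adjusted p = 0.0783), and without Lgr5-Tspan8hi replicate 1 the value was 0.56 (edgeR adjusted p = 0.0357). H3K4me3 at Adam12 was highest in Lgr5+Tspan8-, with 90.2 and 97.6 CPM against 66.1 to 79.8 CPM in the other 6 libraries, and did not pass with Tspan8 (log2 fold change -0.16 ± 0.14, edgeR adjusted p = 0.934). Effective depth was lower in every Tspan8hi library, and the H3K27me3 sum of the 8 fibroblast markers was 331 to 415 CPM in Tspan8hi and 296 to 369 CPM in Tspan8- libraries. The H3K27me3 sum of the 6 immune markers did not overlap, at 376 to 398 CPM in Tspan8hi and 400 to 426 CPM in Tspan8- libraries. Their part in both changes was not tested, and in such bulk libraries a mark on more cells and more of it per cell cannot be told apart.

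**Figure D3:**
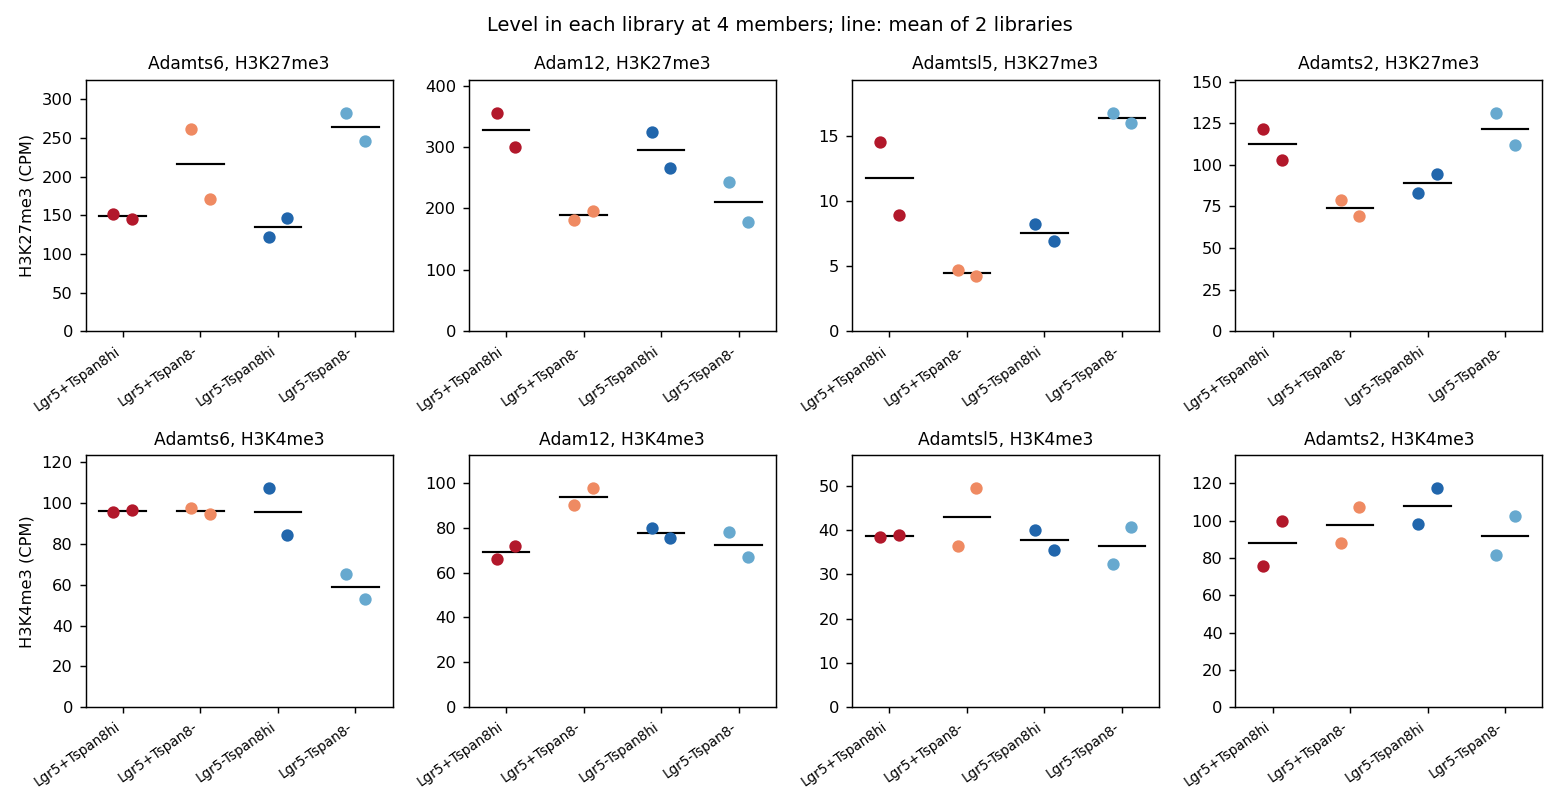
H3K27me3 (upper row, CPM) and H3K4me3 (lower row, CPM) at Adamts6, Adam12, Adamtsl5 and Adamts2, each point a library and each line the mean of the 2 libraries of a subpopulation. Both Tspan8hi groups are low in H3K27me3 at Adamts6 and high at Adam12, and at Adamtsl5 and Adamts2 the Lgr5+Tspan8- libraries are the lowest.

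Beyond these calls, the libraries of both sides did not overlap in H3K27me3 at 10 of the 83 members (12%) and at 6.22% of all genes (3 members and 2.67% of genes above, 7 members and 3.54% of genes below). Besides Adam12, Adam17 (14.2 ± 2.32 against 8.69 ± 1.58 CPM) and Mmp17 (30.5 ± 2.01 against 23.1 ± 2.26 CPM) were above in Tspan8hi libraries. Besides Adamts6, Adam3, Adam5, Adam32, Adam25, Adam1b and Mmp9 were below, with Adam5 at 108 ± 4.58 against 128 ± 7.17 CPM and Mmp9 at 48.5 ± 3.98 against 59.4 ± 9.73 CPM (SD, n = 4 each). Adam3, Adam5 and Adam32 are the adjoining sperm-type genes of chromosome 8. None of these 8 passed (edgeR adjusted p from 0.184 to 0.606). Adamts17, at 177 ± 22.9 against 139 ± 11.7 CPM, did not pass either (edgeR adjusted p = 0.127), and DESeq2, a replicate block and the fit without Lgr5-Tspan8- replicate 1 took it past the threshold (adjusted p = 0.028, 0.0209 and 0.0152).

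By role, the H3K27me3 difference was above 0 at all 7 proteoglycan-cleaving ADAMTS genes (median log2 0.21) and at 8 of 9 somatic catalytic ADAMs (0.24). It was above 0 at 13 of 17 secreted MMPs (0.19) and at 6 of 20 reproductive-tract and other ADAMs (median -0.17). Over all 83 members 49 were above 0 and 34 below, with a median of 0.10, beside 52.7% above 0 and a median of 0.02 over all genes. Under 4 other scalings the medians of these 4 roles kept their signs, ranging from 0.07 to 0.26, 0.10 to 0.29, 0.12 to 0.25 and -0.18 to -0.12. Of the somatic ADAMs as few as 6 were above 0. The 3 procollagen N-propeptidases were above 0, with a median of 0.12 that came to -0.01 under 1 scaling. The 6 membrane-type MMPs had a median of -0.09. No member of these roles other than Adam12 passed by itself, and role differences were not tested. The somatic ADAMs, proteoglycan-cleaving ADAMTS genes and N-propeptidases also had the least H3K27me3 of the roles (medians 0.42, 0.46 and 0.48 CPM per kb). Adamtsl, Timp and reproductive-tract and other ADAM genes had more per kb and medians below 0. Secreted MMPs (0.73) and non-catalytic neural ADAMs (1.52 CPM per kb, median log2 0.10) went the other way. In every Tspan8hi library effective depth was lower, and the part of depth or H3K27me3 level was not tested.

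**Figure D4:**
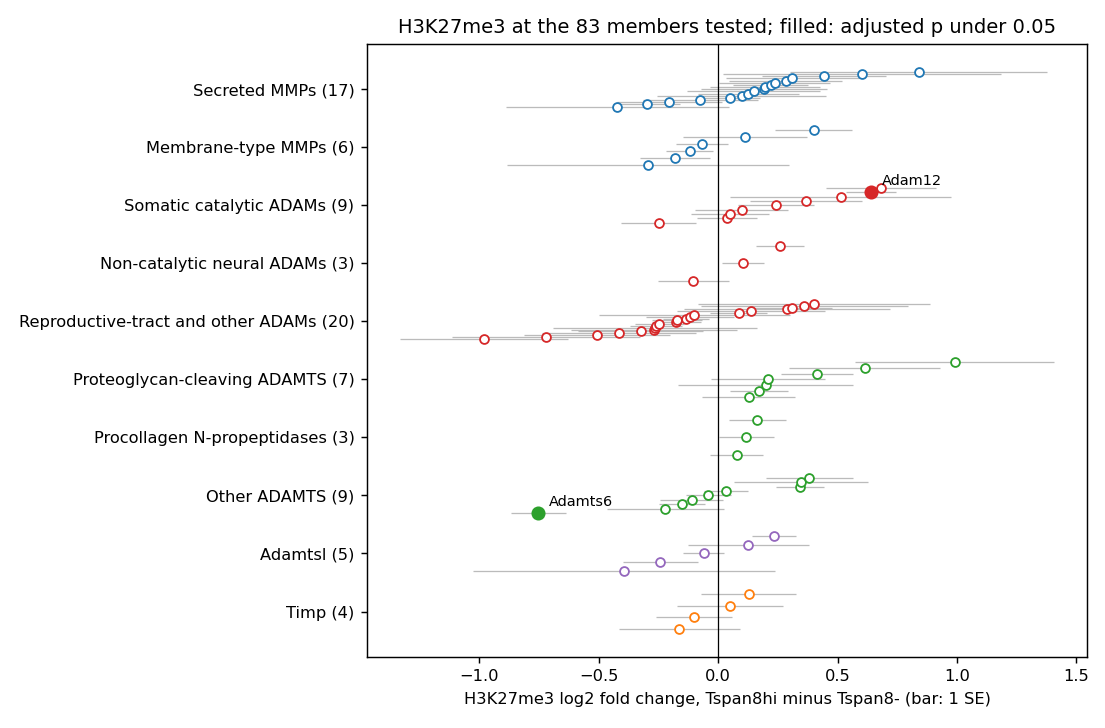
H3K27me3 log2 fold change, Tspan8hi minus Tspan8-, at the 83 members tested, by role; points are genes, bars 1 SE, and filled points passed an adjusted p of 0.05. Adam12 at 0.64 and Adamts6 at -0.75 are the filled points, and all 7 proteoglycan-cleaving ADAMTS genes are to the right of 0. Effective depth was lower in the Tspan8hi libraries, and its part was not tested.

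H3K4me3 in the same comparison had a median log2 fold change of -0.05 over the 55 members tested, with 22 above 0. The smallest p belonged to Adam22, at 27.6 ± 7.84 against 42.8 ± 10.2 CPM (SD, n = 4 each; log2 fold change -0.63 ± 0.22, edgeR adjusted p = 0.608). Adamts1 stood at 170 ± 4.3 against 150 ± 21.8 CPM (edgeR adjusted p = 0.866). Timp2 stood at 62.8 ± 5.81 against 80.2 ± 9.85 CPM and Adamts20 at 53.3 ± 18.1 against 67.2 ± 6.21 CPM. Adamts10 was the 1 member whose libraries did not overlap, at 51.7 ± 3.74 against 38.9 ± 3.76 CPM, where 3.08% of all genes did not. None of these differences passed the test over all genes.

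The Lgr5 comparison set the 4 Lgr5+ against the 4 Lgr5- libraries. For H3K4me3 0 of 55 members passed, while 0.0421% of all genes did (lowest edgeR adjusted p 0.774, at Adamts20). An unadjusted edgeR p under 0.05 was found at 4 members (7.27%), against 4.98% of all genes. At none did the libraries of both sides separate fully, as they did at 2.84% of all genes. Adamts20, which acts on versican, had 35.6 and 42.4 CPM in Lgr5+Tspan8hi, 58.4 and 67.1 CPM in Lgr5+Tspan8-, 76.2 and 58.9 CPM in Lgr5-Tspan8hi and 72.1 and 71 CPM in Lgr5-Tspan8- libraries. Only the double-positive libraries stood apart, below the other 6. Adamts18 (86.8 ± 11.9 against 105 ± 14.8 CPM) and Adamtsl2 (12.1 ± 4.80 against 20.9 ± 7.67 CPM) had lower means in Lgr5+ libraries, with overlap. Upward, Adamtsl4 stood at 49.8 ± 6.25 against 41.7 ± 2.78 CPM and Adamts1 at 168 ± 7.39 against 153 ± 23.8 CPM, neither passing (edgeR adjusted p = 0.979 and 0.985).

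For H3K27me3 0 of 83 members passed with Lgr5, where 0.0407% of all genes did. An unadjusted edgeR p under 0.05 was found at 7 members (8.43%), against 7.19% of all genes. DESeq2 and limma-voom also called 0 members for either mark. Timp4 came nearest, with 21.2 and 21.4 CPM in Lgr5+Tspan8hi, 28.3 and 23.4 CPM in Lgr5+Tspan8-, 37.2 and 33.6 CPM in Lgr5-Tspan8hi and 28.8 and 37.6 CPM in Lgr5-Tspan8- libraries. It was the 1 member whose Lgr5+ and Lgr5- libraries did not overlap (3.62% of all genes), with means of 23.6 ± 3.30 and 34.3 ± 4.07 CPM and a log2 difference of -0.55 ± 0.16 SE (adjusted p = 0.328 by edgeR). Mmp24 (85 ± 6.75 against 105 ± 16.4 CPM) was lower and Adamts14 (83.7 ± 13 against 69.0 ± 6.01 CPM), Adam28 (63.1 ± 5.17 against 52.8 ± 4.79 CPM) and Adamts20 (103 ± 13.7 against 85.8 ± 12.9 CPM) higher on average in Lgr5+ libraries, without passing (edgeR adjusted p from 0.544 to 0.686). The H3K27me3 sum of the 8 luminal markers did not overlap in this comparison, at 730 to 755 CPM in Lgr5+ and 666 to 718 CPM in Lgr5- libraries, and its part was not tested.

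Whether the Tspan8 difference depended on Lgr5 was tested as an interaction. No member passed for H3K4me3 (0 of 55, as 0.0% of all genes) or H3K27me3 (0 of 83, with 0.00905% of all genes). The lowest edgeR adjusted p was 0.9997 and 0.159. An unadjusted edgeR p under 0.05 was found at 3 (5.45%) and 9 members (10.8%), against 4.21% and 5.5% of all genes. DESeq2 called 0 for H3K4me3 and 1 for H3K27me3 (Adamts2), and limma-voom 0 for both. Any difference among the 4 subpopulations passed at 0 of 55 members for H3K4me3 (0.0894% of all genes) and at 3 of 83 for H3K27me3 (0.529% of all genes). At an unadjusted edgeR p under 0.05 these were 7 (12.7%) and 17 members (20.5%), against 5.27% and 11.1% of all genes. For H3K4me3 DESeq2 called 0 and limma-voom 1. The 3 were Adamts6 (edgeR adjusted p = 0.00716), Adam12 (0.0127) and Adamtsl5 (0.0365). The joint call of Adam12 ended without Lgr5+Tspan8hi replicate 1 or either Lgr5+Tspan8- library (edgeR adjusted p = 0.109, 0.134 and 0.0823).

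Adamtsl5, an ADAMTS-like protein that binds microfibrils (chromosome 10, 80339793 to 80349030, minus strand), varied in a pattern unlike those of Adamts6 and Adam12. H3K27me3 was 14.6 and 8.9 CPM in Lgr5+Tspan8hi, 4.8 and 4.3 CPM in Lgr5+Tspan8-, 8.3 and 6.9 CPM in Lgr5-Tspan8hi and 16.8 and 16 CPM in Lgr5-Tspan8- libraries. Within Lgr5+ cells both Tspan8hi libraries were above both Tspan8- libraries, and within Lgr5- cells both were below. The interaction was 2.52 ± 0.51 on the log2 scale and did not pass (edgeR adjusted p = 0.159). The joint call ended without Lgr5+Tspan8hi replicate 1, either Lgr5+Tspan8- library or Lgr5-Tspan8- replicate 2 (adjusted p = 0.0809, 0.208, 0.266 and 0.133), and without Lgr5-Tspan8hi replicate 1 it was 0.00706. Its H3K4me3 was 32.3 to 49.5 CPM and showed no such order.

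Adamts2, the main procollagen I N-propeptidase, had the same order of H3K27me3 without passing. It had 121 and 103 CPM in Lgr5+Tspan8hi, 78.6 and 69.4 CPM in Lgr5+Tspan8-, 83 and 94.6 CPM in Lgr5-Tspan8hi and 131 and 112 CPM in Lgr5-Tspan8- libraries. The interaction was 1.05 ± 0.22 (edgeR adjusted p = 0.208) and the joint adjusted p 0.0727, which 8 of 17 alternatives took under 0.05.

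Of 33 related genes (the plasminogen system, regulators of MMPs and ADAMs, tetraspanin partners of ADAM10, astacins and ligands shed by ADAMs), 0 of 28 tested for H3K4me3 and 0 of 33 for H3K27me3 passed with Tspan8, with Lgr5 or in the interaction (edgeR; 2, 0 and 3 for H3K4me3 and 8, 5 and 4 for H3K27me3 at an unadjusted p under 0.05). The shares over all genes were 5.9%, 4.98% and 4.21% for H3K4me3 and 12.9%, 7.19% and 5.5% for H3K27me3. In the joint test 1 of 28 and 11 of 33 had an unadjusted p under 0.05, against 5.27% and 11.1% of all genes. The 1 joint call was for H3K27me3 at Serpine2, the protease nexin that inhibits thrombin and plasminogen activators (edgeR adjusted p = 0.0437). Its means were 114 ± 16.7 CPM with Tspan8hi and 153 ± 25.5 CPM with Tspan8- (SD, n = 4 each; log2 fold change -0.43 ± 0.10, edgeR adjusted p = 0.0593). Tll1, an astacin protease, stood at 203 against 158 CPM (edgeR adjusted p = 0.13), and Tll2, a related protease, at 455 against 555 CPM (edgeR adjusted p = 0.142). With Lgr5, Tspan17, an ADAM10 partner, had 8.07 against 14.6 CPM of H3K27me3 (edgeR adjusted p = 0.328). For H3K4me3 the smallest p with Tspan8 belonged to Serpinb5, the serpin maspin, at 102 against 84 CPM (edgeR adjusted p = 0.76), and to Plau, urokinase, at 60.3 against 75.6 CPM (edgeR adjusted p = 0.804).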

How the data were processed

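The authors deposited a raw count per Entrez gene for each of the 16 H3K4me3 and H3K27me3 libraries, not normalized. FeatureCounts and mm10 are named, per the submitters' processing notes; aligner, annotation and versions: not given in the sources used here. A RefSeq table of GRCm38.p6 gave 25189 of 27080 identifiers a symbol. The members, their roles and the related list were chosen with earlier results of these data known. Each mark was fitted on its 8 libraries with edgeR 4.0.16 in R 4.3.3 (filterByExpr on the subpopulation, TMM, robust quasi-likelihood F test, Benjamini-Hochberg over all genes tested, threshold 0.05). This kept 19009 and 22099 genes, with 4 residual degrees of freedom and a biological coefficient of variation of 16% and 16.8%. Of the members 29 for H3K4me3 and Adam1a for H3K27me3 had too few counts to be tested. A fit was tested on simulated data before use. CPM were scaled by the TMM factors. SEs were derived from the F statistic, and the precision is set by library spread and, at low counts, by counting error. Replicates differed by more than sampling noise (chi-square per degree of freedom 2.90 to 5.43). The members named by rule were a fixed set of 17, those past the threshold, the 3 smallest p in each direction of the Tspan8 and Lgr5 comparisons, and the extremes of level in each family; other members named were chosen after their values were seen. Alternatives were DESeq2 1.42.0, limma-voom (limma 3.58.1), RLE factors, totals without factors, offsets by loess, no filter, a mean of at least 5 CPM, a replicate block, each library left out and, added after seeing the data, offsets against reads per kb of gene. A planned search of protein sequences was not run.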

Additional observations from a re-analysis of the deposited data

How the results depend on the processing

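With H3K27me3 and Tspan8, the 2 members past the threshold became 1 to 4 as each library was left out, 4 being without Lgr5-Tspan8hi replicate 2 (Adamts8 and Adamts9 added). The 3 members with any H3K27me3 difference became 1 to 6, and 5 with the replicate block. In the H3K27me3 interaction the count of 0 became 1 with DESeq2, 2 with no filter, 2 with the replicate block and 0 to 2 with a library left out, always Adamts2 or Adamtsl5. For H3K4me3 the counts of 0 became 0 to 1 with Tspan8 (Adam18, without Lgr5-Tspan8hi replicate 2) and 0 to 3 for any difference, where limma-voom gave 1 (Adamts6). Same-numbered libraries deviated together by correlations of only -0.015 to 0.157 (H3K4me3) and 0.0046 to 0.167 (H3K27me3), so the numbers were not taken as pairs, and the block added Adamts17 to the H3K27me3 Tspan8 calls. Above the median of all genes lay 37 members for H3K4me3 and 55 for H3K27me3 per kb. In the upper 33.3% of all genes for H3K27me3 per kb lay 31 members. At or above the 75th percentile for H3K27me3 without division by gene length lay 36 members (42.9%). The cause of these shifts was not tested. The H3K27me3 differences of Adamts6 and Adam12 with Tspan8 kept their direction under all 17 alternatives, whereas under a scaling only 1 of the 3 procollagen N-propeptidases stayed above 0. Low counts limit what can be seen at the Mmp genes of chromosome 9 and the sperm-type ADAMs.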
